A study of Canis lupus familiaris with 6 samples.

Results

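NRF2 (NFE2L2) is the transcription factor that switches on the antioxidant and detoxification programme of animal cells. Its adaptor KEAP1 normally delivers it for degradation, and oxidants or electrophiles that modify KEAP1 let NRF2 accumulate, pair with small MAF proteins and bind antioxidant response elements. The genes so induced make and recycle glutathione and thioredoxin, import cystine, reduce quinones and break down heme. The genes described here are NFE2L2, KEAP1, NQO1, HMOX1, GCLC, GCLM, GSR, TXNRD1, SLC7A11 and SRXN1, chosen by symbol. Of these 10 genes, 9 had at least 1 probe set whose annotation named that gene alone, out of 15115 genes so named on the array. They were covered by 19 probe sets, and the brightest, by the mean over the arrays, stood for each gene. SRXN1, the sulfiredoxin gene, was named by 0 probe sets and was not analysed here.

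The samples were 6 primary osteosarcoma lines from dogs, each profiled once on an Affymetrix canine array as cultured cells and not as xenografts. The tumorigenic group (n = 3) holds UWKOS1, UWKOS3 and UWKOS7, which grew as tumours in transplanted mice. The non-tumorigenic group (n = 3) holds UWKOS2, UWKOS6 and UWKOS8, which did not. All lines were untreated, were kept in the same serum-containing medium and were harvested at 70 to 80% confluency, and the study had no normal reference cells. Nothing in the labels says whether any 2 lines came from the same dog, and a line here is a single culture. Each limma p-value therefore weighs a group difference only against the spread between these cultures, moderated over all tested genes. Values are log2 intensities, and differences are tumorigenic minus non-tumorigenic. Levels of different genes on an array cannot be ranked against each other, because probe sets differ in brightness.

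The mesenchymal markers VIM, COL1A1, COL1A2 and SPARC were bright in every line, with 12.28 as the lowest reading. Of the bone markers RUNX2 and BGLAP averaged just above the dim-probe filter of 6.07, while ALPL and SPP1 averaged under it and only UWKOS1 was bright for SPP1, at 9.76. Of the 8 mesenchymal and bone markers tested 0 passed limma, 2 were lower at an unadjusted p under 0.05, and the median difference was -0.53. These 2, COL1A2 (-0.93) and SPARC (-0.88), did not overlap between groups and passed without UWKOS7 or with array weights. The summed linear signal of that list was 50956 to 81987 in tumorigenic lines, against 83706 to 92888 in non-tumorigenic lines. Among epithelial markers 4 of 5 measured were higher on average in tumorigenic lines, where 53.1% of all measured genes were lower. Only KRT7 was bright enough to be tested, and it rose, a call that was lost without any 1 line. The other 4 averaged under the filter, and their high readings came from single lines or pairs of lines. EPCAM was bright in UWKOS1 alone, at 7.65. KRT8 read 6.49 in UWKOS1 and 6.64 in UWKOS3, but 3.04 in UWKOS7, near the 2.69 to 2.93 of non-tumorigenic lines. KRT18 overlapped between groups, with UWKOS7 at 5.26. The summed linear signal of the list was 213 to 580 in tumorigenic lines, against 129 to 166 in non-tumorigenic lines. CDH1, a defining epithelial marker, stayed between 3.95 and 4.26. The 3' to 5' signal of the control transcripts, a measure of RNA length, stood apart in UWKOS6 and UWKOS8: the mean log2 ratio of 4 control pairs was 0.53, 0.59 and 0.81 in tumorigenic lines, against 0.62 in UWKOS2, 1.55 in UWKOS6 and 1.48 in UWKOS8 (two-sided exact permutation p = 0.2, where 0.1 is the smallest possible). The part of these features in the differences below was not tested, beyond the fits without those lines and with the ratio as a covariate. Across all genes, 1109 of 9145 tested passed limma at an adjusted p under 0.05, 686 higher and 423 lower. Centring on the hybridization controls gave 1098 higher and 303 lower.

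GCLC, the catalytic subunit of glutamate-cysteine ligase and so of the first and rate-limiting step of glutathione synthesis, rose in the tumorigenic lines. It read 8.04 in UWKOS1, 7.88 in UWKOS3 and 7.41 in UWKOS7, against 6.54 in UWKOS2, 6.64 in UWKOS6 and 6.07 in UWKOS8. Every tumorigenic line lay above every non-tumorigenic line. The means were 7.78 ± 0.33 in tumorigenic and 6.42 ± 0.31 in non-tumorigenic lines (SD, n = 3 each), a difference of 1.36 (SE 0.24), or 2.57-fold (limma adjusted p = 0.0245). Its other probe set read 7.54, 7.45 and 6.69 in the same tumorigenic lines, against 5.81, 5.62 and 5.52 in the non-tumorigenic lines. That probe set differed by 1.58 (limma adjusted p = 0.0228 over 21462 probe sets). Its non-tumorigenic values all lay under the filter of 6.07, so it was tested only because of its tumorigenic values and the size of its difference is uncertain. In bulk cultures a larger share of cells with a transcript and more of it per cell cannot be told apart.

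GCLC was the only one of the genes to pass, as 1 of the 8 that were bright enough to be tested, in a comparison in which 12.1% of all tested genes passed, 7.5% higher and 4.63% lower. The share is near that background. Over probe sets 12% passed. The call held without UWKOS7 (limma adjusted p = 0.0223) and was lost without any 1 of the other 5 lines (limma adjusted p from 0.0555 to 0.0862). With the high-ratio lines UWKOS6 and UWKOS8 both left out, the difference was 1.24 (limma adjusted p = 0.351, in a fit in which 1 gene of 9145 passed), and with the GAPDH end ratio as a covariate it was 1.08 (limma adjusted p = 0.105).

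**Figure D1:**
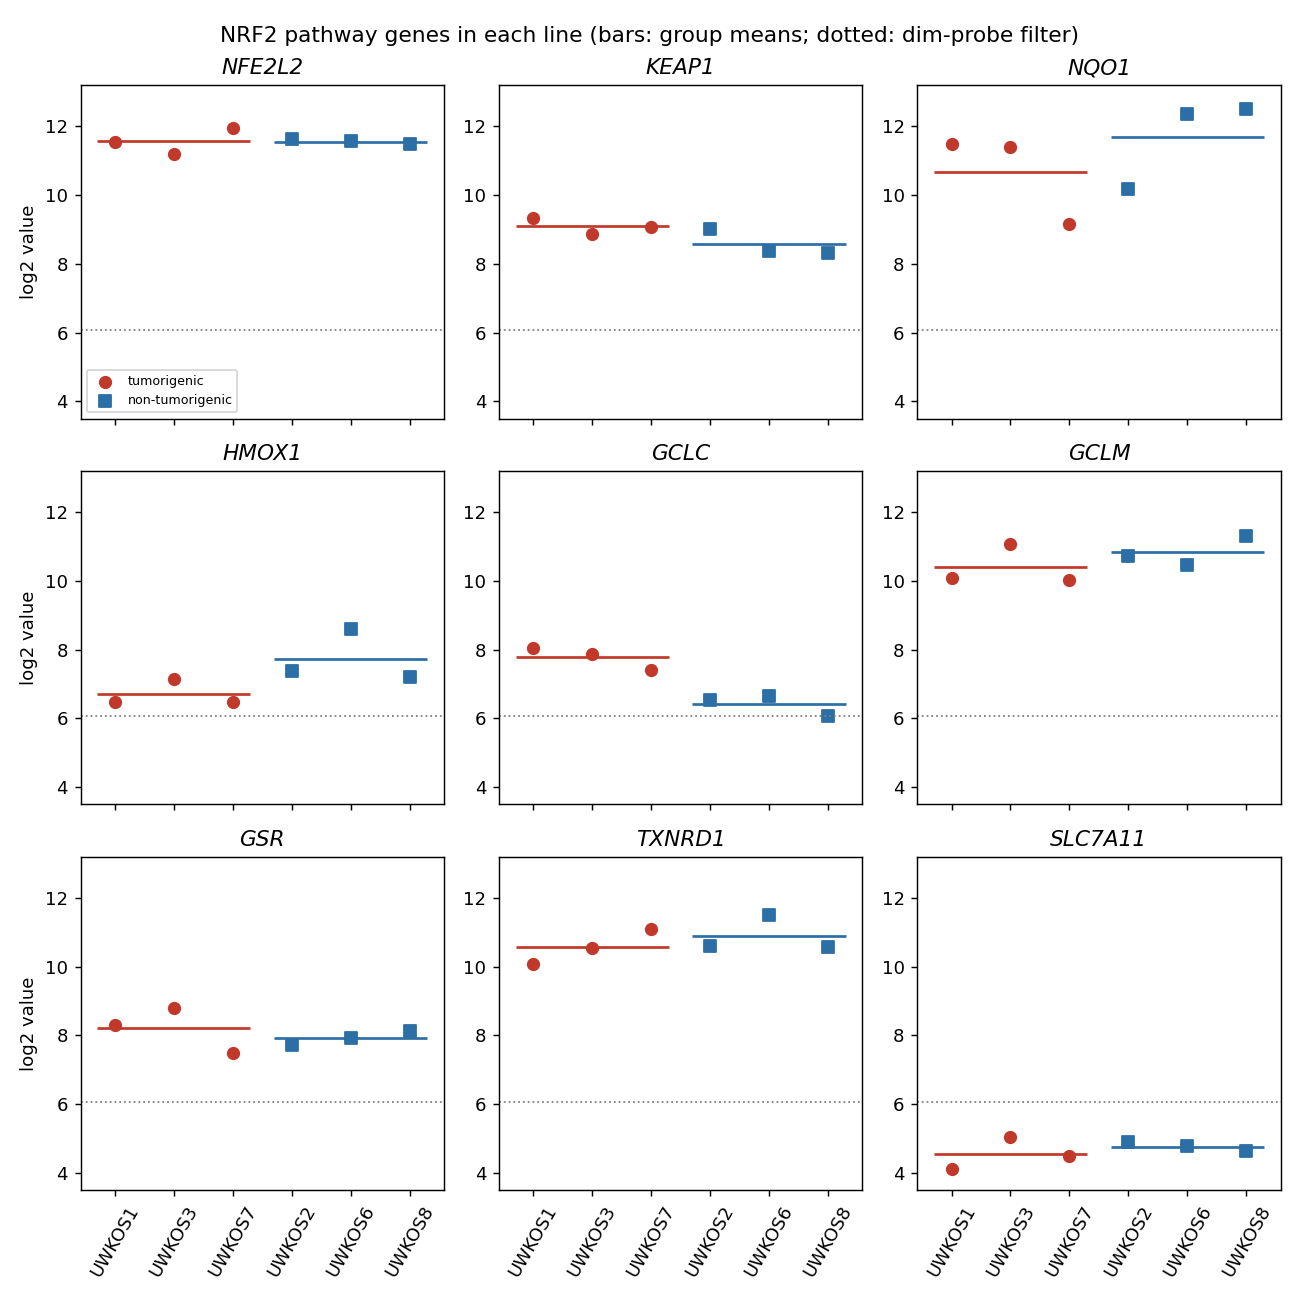
Log2 value of the brightest probe set of each gene in each line, with tumorigenic lines as circles on the left and non-tumorigenic lines as squares on the right; horizontal bars are group means and the dotted line is the dim-probe filter of 6.07. GCLC and HMOX1 are the only panels in which the groups do not overlap, GCLC with the tumorigenic lines above and HMOX1 with them below.

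GCLM, the modifier subunit of the same ligase, did not pass. It read 10.09, 11.09 and 10.01 in UWKOS1, UWKOS3 and UWKOS7, against 10.72, 10.46 and 11.32 in UWKOS2, UWKOS6 and UWKOS8. The groups overlapped, with UWKOS8 highest and UWKOS7 lowest. The difference was -0.43, with a 95% interval from -1.31 to 0.44 (limma adjusted p = 0.455). The dimmer GCLM probe set gave 0.02. The group difference was larger for GCLC than for GCLM by 1.80 log2 units (two-sided exact permutation p = 0.1, the smallest that 20 regroupings can give). That contrast was outside the planned tests and used the brightest probe sets only. It was not run with the dimmer GCLM probe set, whose difference lay nearer to that of GCLC.

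SLC7A11 encodes the light chain of the cystine/glutamate antiporter that supplies cysteine for glutathione, and is also known as a target of ATF4. Its 1 probe set was dim in every line. It read 4.11, 5.06 and 4.51 in UWKOS1, UWKOS3 and UWKOS7, against 4.90, 4.77 and 4.63 in UWKOS2, UWKOS6 and UWKOS8. All 6 values lay under the filter of 6.07 and are not known to be above background. In the fit with no filter it differed by -0.21 (limma adjusted p = 0.662).

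GSR, the reductase that regenerates glutathione with NADPH, varied more among the tumorigenic lines than among the others. It read 8.31, 8.80 and 7.50 in UWKOS1, UWKOS3 and UWKOS7, against 7.73, 7.93 and 8.14 in UWKOS2, UWKOS6 and UWKOS8. UWKOS3 was highest and UWKOS7 lowest, so the tumorigenic values enclosed the others. The difference was 0.27, with a 95% interval from -0.55 to 1.09 (limma adjusted p = 0.623).

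NQO1, a quinone reductase widely read as an index of NRF2 activity, was the gene of the set that varied most between lines. It read 11.47 in UWKOS1, 11.39 in UWKOS3 and 9.16 in UWKOS7, against 10.17 in UWKOS2, 12.36 in UWKOS6 and 12.51 in UWKOS8. A low line was present in each group, UWKOS7 among the tumorigenic and UWKOS2 among the non-tumorigenic lines. The range over the lines was 3.35, wider than in 95.8% of tested genes, and the residual SD within groups was 1.31, larger than in 97.8% of them. The difference of -1.01 had a 95% interval from -3.06 to 1.05 (limma adjusted p = 0.46).

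The other tested NQO1 probe set read 9.89, 9.75 and 7.60 in UWKOS1, UWKOS3 and UWKOS7, against 8.53, 11.36 and 11.26 in UWKOS2, UWKOS6 and UWKOS8. The same 2 lines were low and the same 2 lines, UWKOS6 and UWKOS8, were high. One more NQO1 probe set averaged 4.73, under the filter, and spanned only 4.39 to 5.35. Without both UWKOS6 and UWKOS8, which also have the high transcript-end ratios, the NQO1 difference was 0.50 in place of -1.01 (limma adjusted p = 0.91).

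HMOX1, the inducible heme oxygenase that releases iron, carbon monoxide and biliverdin from heme, was lower in each tumorigenic line but did not pass. It read 6.46, 7.15 and 6.48 in UWKOS1, UWKOS3 and UWKOS7, against 7.39, 8.60 and 7.22 in UWKOS2, UWKOS6 and UWKOS8. The groups did not overlap, though UWKOS3 and UWKOS8 lay close together and UWKOS6 stood well above the rest. The difference was -1.04 (SE 0.41, limma adjusted p = 0.139) and its 95% interval ran from -2.02 to -0.06. Non-overlapping groups were found for 2 of the 9 genes, HMOX1 and GCLC, and for 31.1% of all 15115 measured genes. Macrophages are rich in HMOX1, and of 11 macrophage and leukocyte markers 8, among them PTPRC, CSF1R and CD163, averaged under the filter. The 3 tested were CD68, CD14 and LAPTM5, of which 0 passed limma and CD68 was lower at an unadjusted p under 0.05. CD68 averaged 6.34 in tumorigenic and 7.41 in non-tumorigenic lines (difference -1.07), close in size to HMOX1, and it passed without UWKOS7. LAPTM5 differed by -0.34 with no overlap and CD14 by 0.04 with overlap. The order of lines differed between CD68 and HMOX1. UWKOS7 read 7.32 for CD68 and 6.48 for HMOX1, and UWKOS8 had the highest CD68, 7.68, with HMOX1 at 7.22. Of the 11 markers 7 were lower and 4 higher on average, beside 53.1% of all measured genes lower. The summed linear signal of that list was 570 to 729 in tumorigenic lines, against 733 to 814 in non-tumorigenic lines. Its part in the HMOX1 difference was not tested.

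TXNRD1, the cytosolic thioredoxin reductase, had 5 probe sets that disagreed in sign. The brightest read 10.09, 10.53 and 11.08 in UWKOS1, UWKOS3 and UWKOS7, against 10.62, 11.49 and 10.58 in UWKOS2, UWKOS6 and UWKOS8. UWKOS6 was highest, UWKOS1 was lowest and the groups overlapped. It differed by -0.33 (limma adjusted p = 0.559), while the other 3 tested probe sets differed by 0.05, 0.31 and 0.37. One of these 3 did not overlap between groups, at 7.67 to 7.78 in tumorigenic lines and 7.38 to 7.46 in non-tumorigenic lines, and it too did not pass (limma adjusted p = 0.186).

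NFE2L2 itself was bright in all lines and its group means were nearly equal. It read 11.55, 11.20 and 11.94 in UWKOS1, UWKOS3 and UWKOS7, against 11.62, 11.57 and 11.47 in UWKOS2, UWKOS6 and UWKOS8. On this brightest probe set UWKOS7, the line with the lowest NQO1, had the highest NFE2L2. The difference was 0.01, with a 95% interval from -0.51 to 0.53 (limma adjusted p = 0.976). With 3 lines in each group, a difference anywhere within that interval remains compatible with these values. A dimmer NFE2L2 probe set read 8.83, 8.36 and 8.83 in the tumorigenic lines, against 8.40, 7.67 and 7.54 in UWKOS2, UWKOS6 and UWKOS8, and differed by 0.81 (limma adjusted p = 0.106). The 2 low values of that probe set came from the lines with the high transcript-end ratios. These are transcript levels, and NRF2 is controlled largely through protein stability, which the arrays do not measure.

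KEAP1, the adaptor that targets NRF2 for ubiquitination, read 9.33, 8.87 and 9.07 in UWKOS1, UWKOS3 and UWKOS7, against 9.00, 8.38 and 8.32 in UWKOS2, UWKOS6 and UWKOS8. UWKOS2 lay within the tumorigenic values and the other non-tumorigenic lines lay below them. The difference was 0.52 (SE 0.24, limma adjusted p = 0.192). Without both UWKOS6 and UWKOS8 it was 0.09.

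**Figure D2:**
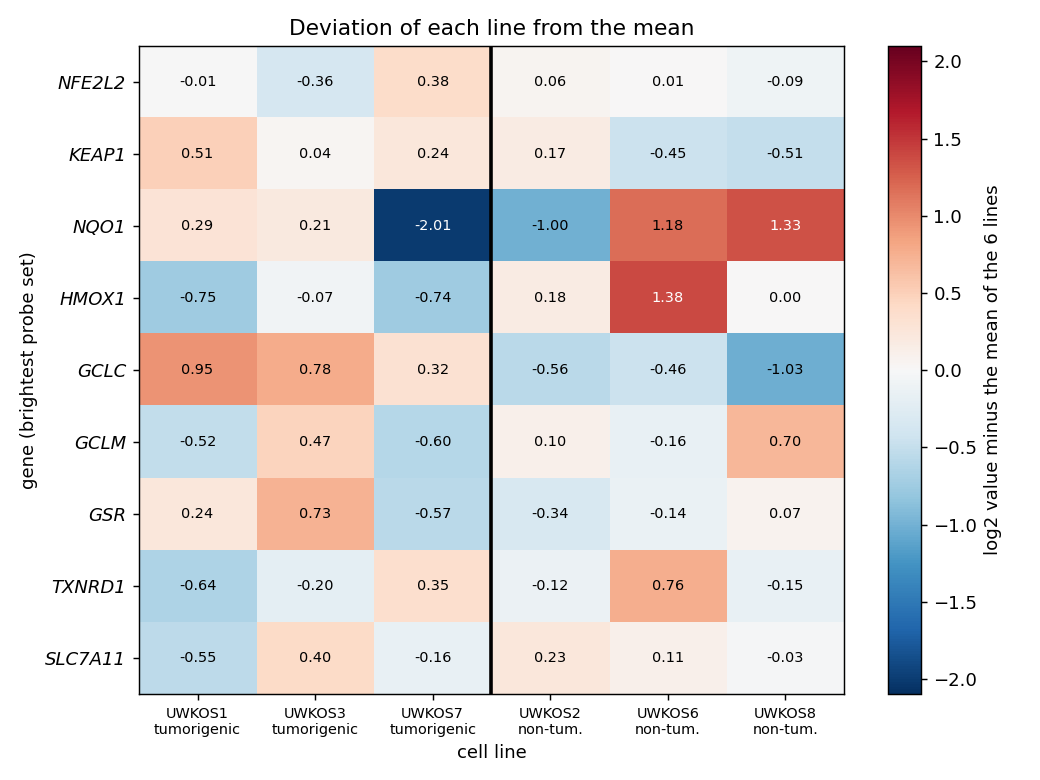
Log2 value of each gene (brightest probe set) in each line minus the mean of the 6 lines, with tumorigenic lines left and non-tumorigenic lines right of the black rule; red is above and blue below the mean. NQO1 spans -2.01 in UWKOS7 to 1.33 in UWKOS8, while NFE2L2 stays within 0.38 of its mean.

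Set side by side, the 9 genes did not share an order of lines. Of the 9, 4 were higher and 5 lower on average in tumorigenic lines, with a median difference of -0.21, beside a median of -0.03 over all 15115 measured genes. Within the tumorigenic group UWKOS7 had the lowest value for 4 genes, NQO1, GCLC, GCLM and GSR, and the highest for NFE2L2 and TXNRD1. UWKOS7 was the lowest tumorigenic line for 30.3% of all measured genes. Within the non-tumorigenic group UWKOS8 had the lowest value for 6 of the 9 and the highest for NQO1, GCLM and GSR; it was the lowest of its group for 30.4% of all measured genes. UWKOS6 was the highest of all lines for HMOX1 and TXNRD1.

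**Figure D3:**
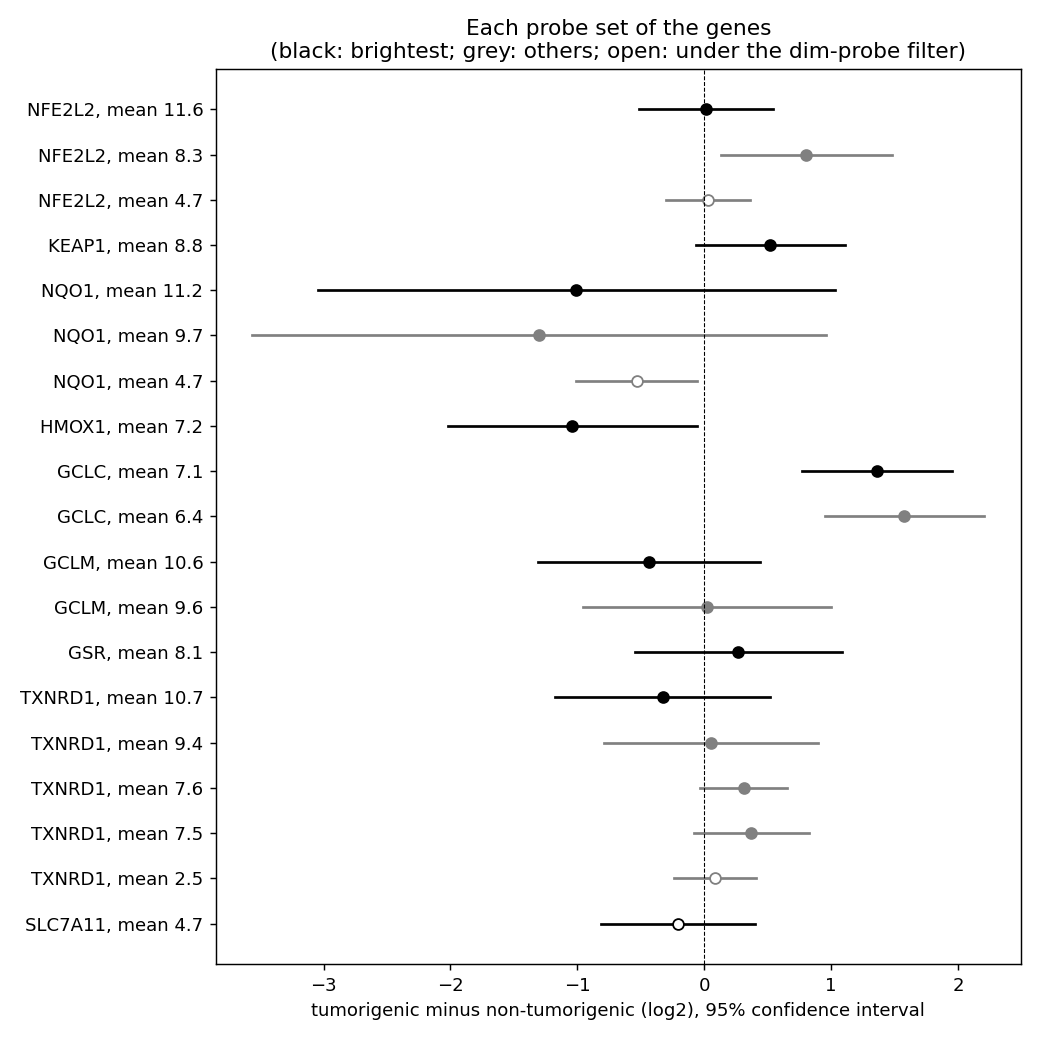
Log2 difference, tumorigenic minus non-tumorigenic, with its 95% confidence interval for each of the 19 probe sets; each label gives the gene and the mean log2 value over the lines. Both GCLC probe sets lie above 0, those of NFE2L2 and GCLM include near-zero differences, and the tested TXNRD1 probe sets fall on both sides of 0.

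The wider pathway was described through 9 lists of other genes, with 111 of 132 genes measured and 99 tested. Of the 99, 7 rose and 4 fell, or 11.1%, near the 12.1% of all tested genes, and their median difference was 0.00. Without UWKOS6 0 of these 11 calls remained (limma, in a fit in which 12 of 9145 genes passed in all), and likewise without both UWKOS6 and UWKOS8 or with an end ratio as a covariate. With any other line left out, 4 list genes passed without UWKOS1, 5 without UWKOS3, 17 without UWKOS7, 3 without UWKOS2 and 3 without UWKOS8.

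Among partners and regulators of NRF2, of 10 tested 2 rose and 1 fell, or 30% beside the 12.1% of all tested genes. The list median was 0.36 over its tested genes, beside 0.03 over all tested genes. Over its 13 measured genes it was 0.09, beside -0.03 over all measured genes. In the rest of the 9 lists, the iron and heme list aside, 0 to 9.09% passed. NFE2L1, a related transcription factor that controls proteasome genes, fell. It read 9.47, 8.44 and 9.39 in UWKOS1, UWKOS3 and UWKOS7, against 11.12, 10.90 and 11.00 in UWKOS2, UWKOS6 and UWKOS8 (difference -1.91, limma adjusted p = 0.0197). The groups lay well apart, and its other probe set, at -1.72, passed as well (limma adjusted p = 0.0284). The NFE2L1 call was lost without UWKOS2, UWKOS6 or UWKOS8. NFE2L3, a further factor of this family, rose by 3.08 (limma adjusted p = 0.0365), reading 8.96, 7.62 and 7.59 in tumorigenic lines, against 6.29, 4.66 and 3.98 in non-tumorigenic lines. Values of NFE2L3 in UWKOS6 and UWKOS8 lay under the filter, as did its non-tumorigenic mean of 4.98. It was tested only because of its tumorigenic values, so the size of that difference and the share of the list that passed are uncertain. PGAM5, a mitochondrial phosphatase that binds KEAP1, rose by 0.89 (limma adjusted p = 0.0494), just inside the threshold, and in the fit over probe sets it did not pass (limma adjusted p = 0.0507). With 1 line left out, NFE2L3 passed without UWKOS2 or UWKOS7, and PGAM5 without UWKOS7, but in no other such fit. Neither passed with no filter on dim probe sets, where of 13 genes of the list 0 rose and 1 fell, beside 6.62% of all 15115 genes. With the upper-quartile filter 1 of 5 rose and 1 fell, where 860 of all 5021 tested genes passed. The NRF2 partner MAFG (0.43) and BACH1, the repressor of HMOX1 (1.11), did not pass with all lines, though BACH1 passed without UWKOS7. Both were picked with their values in view, outside the naming rule.

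Among 12 tested genes of glutathione synthesis, transport and turnover CTH rose and 0 fell, with a median of 0.06. CTH, the enzyme that makes cysteine from cystathionine, read 9.81, 10.20 and 9.45 in UWKOS1, UWKOS3 and UWKOS7, against 7.76, 6.40 and 8.36 in UWKOS2, UWKOS6 and UWKOS8. Every tumorigenic line was above every other, and the difference was 2.32 (SE 0.50, limma adjusted p = 0.0373). A second tested CTH probe set rose by 2.64. With 1 line left out, CTH passed without UWKOS7 or UWKOS8 and not otherwise. CBS, the enzyme one step before CTH, averaged under the filter; it was 6.67, 6.59 and 6.11 in tumorigenic lines, against 4.95, 4.79 and 4.82 in non-tumorigenic lines, and was chosen after its values were seen. In the fit with no filter, in which 6.62% of 15115 genes passed, CBS rose by 1.60 (limma adjusted p = 0.0161); in that fit CTH did not pass. GSS, the glutathione synthetase that acts after GCLC and GCLM, differed by -0.43 (limma adjusted p = 0.164), also chosen after its value was seen.

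Genes that use glutathione or thioredoxin mostly did not pass. Of 11 tested glutathione peroxidases, glutaredoxins and related enzymes GLRX5, a mitochondrial glutaredoxin of iron-sulfur cluster assembly, rose by 0.87 (limma adjusted p = 0.0292) and 0 fell, with a median of 0.00; with 1 line left out it passed only without UWKOS7. All 7 measured glutathione S-transferases were lower on average in tumorigenic lines, by -0.96 to -0.02, beside 53.1% of all measured genes. All 7 were also lower with quantile normalization (51.9% of all genes) and when centred on the 75th percentile (61.4%). With arrays centred on the hybridization controls 4 of the 7 were lower, or 57.1%, beside 30.6% of all measured genes. Of the 5 tested 0 passed limma and 1 had an unadjusted p under 0.05. GSTK1 differed by -0.96 (limma adjusted p = 0.0739) and passed with array weights, and GSTZ1 differed by -0.33 (limma adjusted p = 0.167). Of 16 thioredoxin and peroxiredoxin genes 0 passed limma, with a median of -0.10, and at an unadjusted p under 0.05 1 was higher and 1 lower. The smallest p-values there belonged to the methionine sulfoxide reductase MSRB3 (-1.32) and the mitochondrial peroxiredoxin PRDX3 (0.42). MSRB3 passed downward without UWKOS7 or with array weights, and MSRA passed downward without UWKOS7. Of 5 superoxide dismutase and catalase genes 0 passed limma, also at an unadjusted p under 0.05, and the differences ran from -0.10 to 0.36; SOD2 (0.36) and the copper chaperone CCS (0.17) had the smallest p-values.

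Of 13 tested enzymes that supply NADPH, ME1, the cytosolic malic enzyme and a known NRF2 target, fell by 0.84 (limma adjusted p = 0.0338) and 0 rose, with a median of 0.22. Another ME1 probe set gave -0.25 (limma adjusted p = 0.397), and with 1 line left out ME1 passed only without UWKOS7. ME1 did not pass with arrays centred on the hybridization controls, where ME2 rose and 0 of the list fell, or with probe sets averaged, where MTHFD1 rose and 0 fell. Of 13 tested genes among other NRF2 targets of detoxification EPHX1 fell and 0 rose, with a median of -0.07. EPHX1, the microsomal epoxide hydrolase, read 7.93, 7.90 and 7.06 in UWKOS1, UWKOS3 and UWKOS7, against 10.05, 10.97 and 10.45 in UWKOS2, UWKOS6 and UWKOS8. The gap between groups was wide and the difference was -2.86 (SE 0.33, limma adjusted p = 0.0144). All 3 EPHX1 probe sets fell, with differences between -2.86 and -2.40, and the gene passed when any 1 line other than UWKOS6 was left out.

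PIR, which encodes the iron-binding protein pirin and is a known NRF2 target in human cells, was chosen after its values were seen for having the widest range of the 111 list genes, 6.44. It read 10.41, 12.45 and 6.47 in UWKOS1, UWKOS3 and UWKOS7, against 11.16, 12.75 and 12.91 in UWKOS2, UWKOS6 and UWKOS8. As with NQO1, UWKOS7 was lowest and UWKOS6 and UWKOS8 were highest. The difference of -2.50 did not pass (limma adjusted p = 0.293), and a second PIR probe set gave -2.41. In all, 5 of the 111 list genes had a range at least as wide as that of NQO1.

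Of 14 tested iron and heme genes 3 rose and 1 fell, or 28.6% beside the 12.1% of all tested genes, with a median of 0.06. TFRC, the transferrin receptor that imports iron, read 7.19, 7.33 and 7.34 in UWKOS1, UWKOS3 and UWKOS7, against 5.84, 5.85 and 5.77 in UWKOS2, UWKOS6 and UWKOS8 (difference 1.47, SE 0.14, limma adjusted p = 0.0112). Each group was tight and the 2 did not overlap, and a second TFRC probe set differed by 1.76. IREB2, an iron regulatory protein that stabilises TFRC mRNA and represses ferritin translation, rose by 1.37, and FLVCR1, described as a heme exporter, rose by 1.79. Both TFRC probe sets and FLVCR1 lay under the filter of 6.07 in all non-tumorigenic lines and were tested only because of their tumorigenic values. The sizes of these differences and the share of the list that passed are therefore uncertain. With the upper-quartile filter 1 of 10 tested genes of the list rose, IREB2, and 1 fell, FTH1, where 860 of all 5021 tested genes passed. With no filter 3 of 15 rose and 1 fell, where 6.62% of all 15115 genes passed. FTH1, the ferritin heavy chain that stores iron, fell, at 8.32, 8.85 and 9.10 in tumorigenic lines, against 10.48, 9.98 and 9.89 in non-tumorigenic lines (difference -1.36, limma adjusted p = 0.0301). The light chain FTL differed by -0.26 (limma adjusted p = 0.343) and lies outside the naming rule. TFRC and IREB2 passed without UWKOS1 and without UWKOS3, and TFRC alone of the list passed without UWKOS2 and without UWKOS8. All 4 calls of the list held without UWKOS7, and 0 without UWKOS6.

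**Figure D4:**
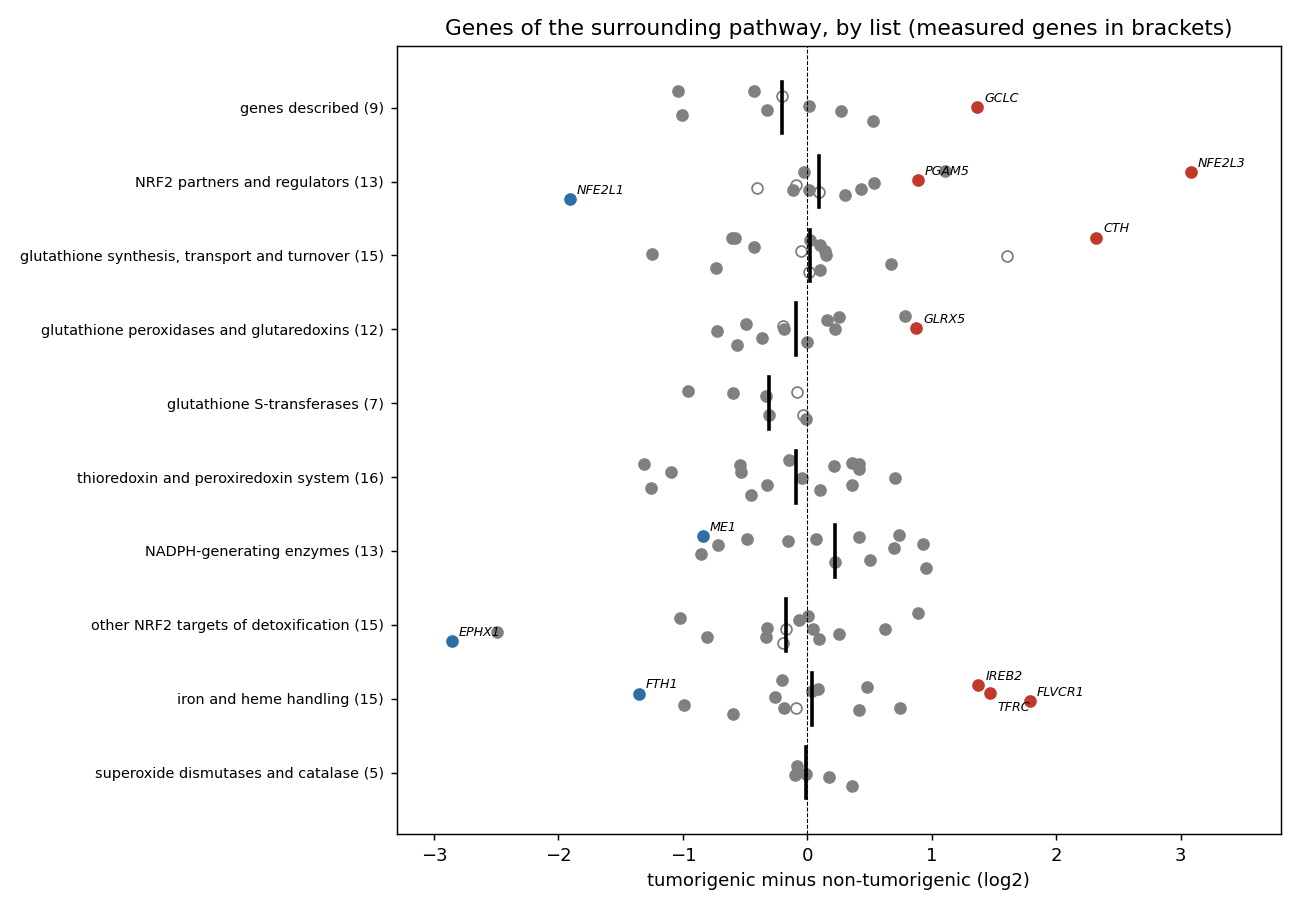
Difference, tumorigenic minus non-tumorigenic (log2), of each measured gene in the set described and in the 9 surrounding lists; red genes rose, blue genes fell, grey genes did not pass, open points were under the dim-probe filter, and vertical bars are list medians. List medians, taken over the measured genes, lie between -0.31 and 0.22, with named genes on both sides.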

How the data were processed

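Total RNA (10 µg, Trizol) was made into biotin-labelled cRNA, per the labels' protocols, from lines in medium with 10% serum. The deposited values are on a log2 scale, inferred from their range of 1.97 to 14.83. Of tools, MAS5 alone is listed, per the submitters' processing notes; nearly equal array quantiles (medians 6.03 to 6.05) are unusual for it, so the summary method is not settled here. The values were used as deposited.

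Of 43035 probe sets 111 were controls. Of the other 42924, 29254 had 1 symbol, 439 several and 13231 none; 27680 symbols were updated through gene identifiers to RefSeq's table of assembly UU_Cfam_GSD_1.0. A gene was tested if its brightest probe set averaged at or above the median of non-control probe sets, 6.07. Groups were compared with limma 3.58.1 (lmFit, eBayes, no covariate) in R 4.3.3, Benjamini-Hochberg adjusted over 9145 genes or, for further probe sets, 21462; the threshold was 0.05. Residual spread and ranges were ranked among tested genes. The fit was tested on simulated data. The number of arrays, 1 per line, limits precision; no detection calls were used. Named were the set's genes, up to 4 passing genes of each list and otherwise the 2 of smallest p. Genes and lists were chosen with earlier results of these data known. Figures were drawn with matplotlib 3.10.9.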

Additional observations from a re-analysis of the deposited data

How the results depend on the processing

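No paired analysis was made, because nothing in the labels pairs a tumorigenic line with a non-tumorigenic line. In 9 of the 18 alternatives 1 gene of the set, GCLC, passed upward, and in the other 9 there were 0: with the upper-quartile filter on dim probe sets, under which GCLC was not tested, with the GAPDH or the mean end ratio as a covariate, without both UWKOS6 and UWKOS8, and in 5 of the 6 fits that leave out 1 line (range 0 to 1). In limma 0 genes of the set passed downward in any of the 18; with all lines 1 of them, HMOX1, was lower at an unadjusted p under 0.05. The GCLC difference kept its sign in all 17 alternatives that gave one, from 1.08 to 1.55, and HMOX1 in all 17, from -1.30 to -0.61, while NFE2L2 kept its sign in 12 of 18, TXNRD1 in 16 and NQO1 in 17. The median of the 9 differences, -0.21, was 0.10 when a gene's probe sets were averaged, 0.04 with the mean end ratio as a covariate, -0.04 when centred on the hybridization controls, and -0.31 to 0.02 with 1 line left out, above 0 without UWKOS1, so its sign is not stable. Of all genes, 10 passed with the GAPDH end ratio as a covariate, 11 with the mean end ratio, which was added after the data were seen, 1 without both UWKOS6 and UWKOS8, and 12 to 1313 with 1 line left out, lowest without UWKOS6; the cause was not tested. Without both lines UWKOS2 stands alone and is assumed to vary like the tumorigenic lines. Centring on the hybridization controls shifted the median of all genes by 0.17. Array weights, robust eBayes, an intensity trend, no filter, quantile normalization and centring on the 75th percentile left GCLC past the threshold. Values under the filter, as in SLC7A11, are not known to lie above background.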
